A study of Mus musculus with 18 samples.

Results

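The 9 genes Cd80, Cd86, Icosl, Cd274, Cd69, Cd83, Cd44, Icam1 and Slamf1 encode surface proteins by which a B cell costimulates, restrains or holds on to T cells, or which mark it as activated. They were taken by name, through their Entrez identifiers, from the 28096 genes of the count tables, and all 9 passed the filter on low counts, which left 14161 genes for testing. RNASeq was performed on B cells purified from the spleens of C57BL/6 N mice aged at least 8 weeks, either wild type (WT) or Ubqln1-/-. Ubqln1 encodes ubiquilin-1, a chaperone that passes client proteins to the proteasome, and the knockout lacks exon 2, removed in C57BL/6 embryonic stem cells by transient Cre, so that every tissue of the mouse carries the deletion. B cells were cultured for 4 hr without a stimulus (resting), with anti-IgM F(ab)2 at 10 ug/mL or with K12 E.coli LPS at 20 ug/mL. Anti-IgM crosslinks the B cell receptor (BCR), and LPS is a ligand of Toll-like receptor 4 (TLR4). Each of the 6 groups held 3 libraries, every library came from 3 wells pooled before RNA purification, and the experiment asked whether the early transcriptional response to either stimulus depended on Ubqln1.

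A T cell that recognizes antigen on a B cell also reads the other ligands on that cell. CD80 and CD86, the B7 proteins, bind CD28 and CTLA-4 on T cells, ICOS ligand (Icosl) binds ICOS, and PD-L1 (Cd274) binds the inhibitory receptor PD-1. CD69 and CD83 appear early on activated lymphocytes, while CD44, ICAM-1 and SLAM (Slamf1) mediate adhesion to hyaluronan, to the integrin LFA-1 and to SLAM itself on other cells. BCR and TLR4 ligation both feed NF-kB, and the BCR in addition raises calcium and activates NFAT.

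The genes lie on 8 chromosomes of GRCm38, and every row of the tables sums the exons of one protein-coding gene. The B7 genes share chromosome 16, Cd80 at chr16:38457430-38495958 on the + strand and Cd86 at chr16:36568956-36666158 on the - strand, while Icosl is at chr10:78069368-78079525 (+) and Cd274 at chr19:29362107-29388095 (+). Cd69 is at chr6:129267324-129275375 (-), Cd83 at chr13:43785112-43803133 (+), Cd44 at chr2:102811141-102901669 (-), Icam1 at chr9:21015940-21028814 (+) and Slamf1 at chr1:171767131-171801184 (+), all as RefSeq places them. Their exonic widths run from 1620 bases (Cd69) to 5654 bases (Cd44).

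The libraries held 15368941 to 41072854 counts (median 23257531), and the 3 WT LPS libraries (28590363 to 41072854) were all deeper than the 3 Ubqln1-/- LPS libraries (17224952 to 27515442). Levels are given as RPKM, the count scaled to the exonic width of the gene and to the library size with edgeR's TMM factors. Ubqln1 itself, counted over all its exons, was at 62.3 to 92.0 RPKM in the 9 WT libraries and at 24.8 to 34.8 RPKM in the 9 Ubqln1-/- libraries, with no overlap, so that exons outside the deletion were still counted. The B cell marker Ms4a1 was at 146.8 to 478.4 RPKM in every library, and the 11 T cell markers summed to 7.49 to 19.9 RPKM. Among the latter, Cd3d, Cd3e and Cd3g had at most 8 reads in any library, while Cd247 had 744 to 1654, Cd5 had 17 to 666 and Lat had 17 to 59. Summed markers reached 0.911 to 2.61 RPKM for NK cells, 4.37 to 21.3 for dendritic cells, 3.91 to 8.86 for erythroid cells and platelets and 437 to 772 for plasma cells. Of the plasma cell markers, Irf4 was at 77.7 to 421.2 RPKM, Mzb1 at 80.6 to 304.5, Jchain at 35.1 to 185.5 and Xbp1 at 37.9 to 77.5. Sdc1 was at 2.8 to 23.3 RPKM, Prdm1 at 2.5 to 6.2 and Tnfrsf17 at 0 to 0.44. Libraries that shared a replicate number resembled each other, and the blocked fits below include that number as a term. Calls and p-values come from fits without that term unless the block is named. Since the libraries are bulk RNA, fewer cells that express a gene and less of its mRNA per cell cannot be told apart.

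**Figure D1:**
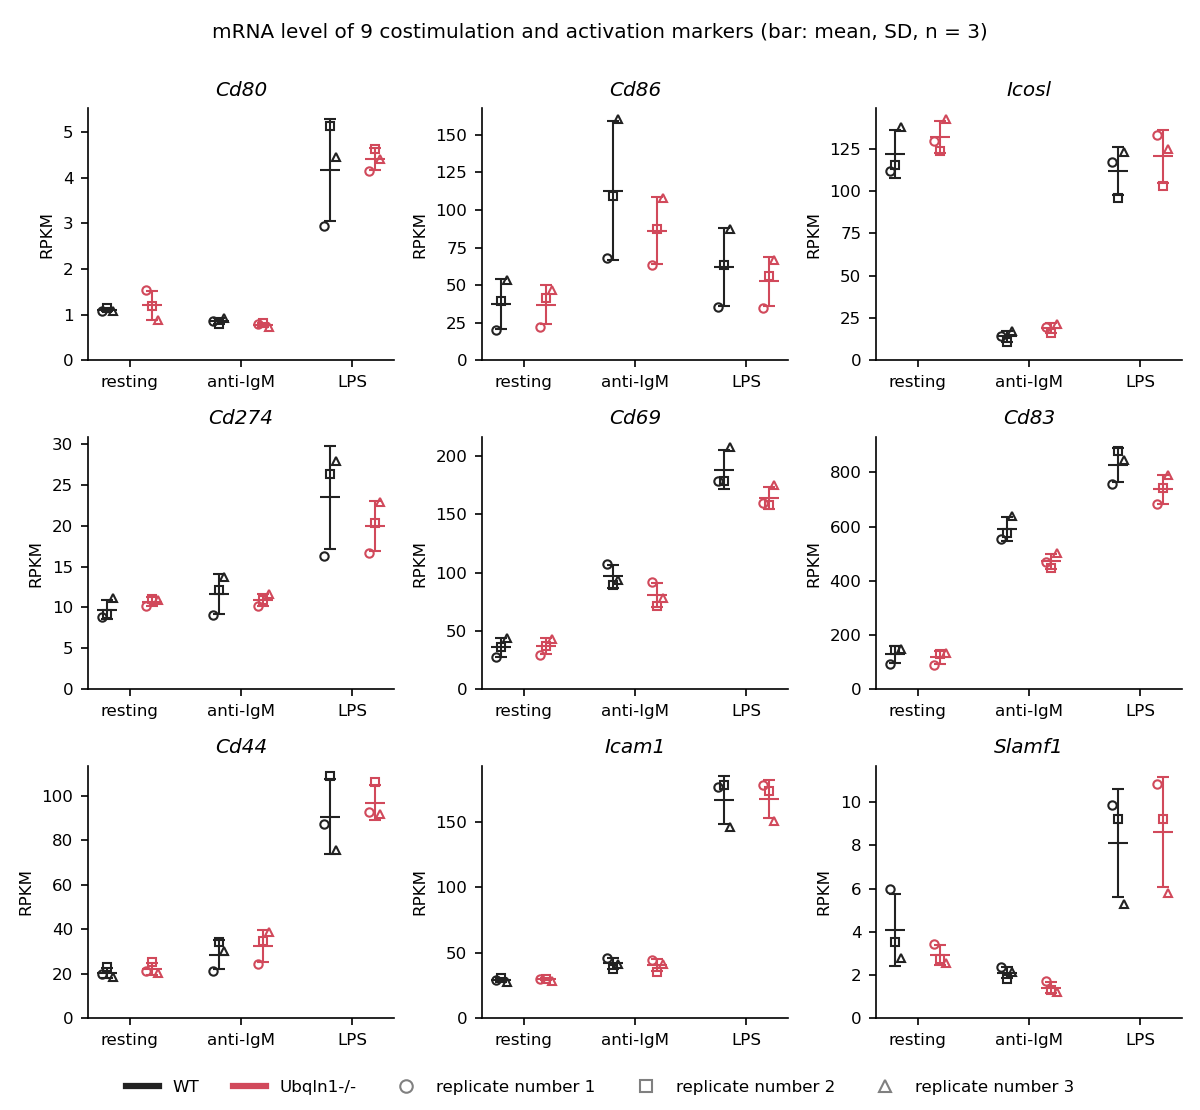
TMM-scaled RPKM of the 9 genes (y axes from 0, one scale per gene) in resting, anti-IgM and LPS libraries of WT (black) and Ubqln1-/- (red) B cells. Symbols are the 3 libraries of a group by replicate number, and bars are the mean and SD. Icosl fell to 10.8 to 17.3 RPKM in WT with anti-IgM, while Cd80, Cd44 and Icam1 rose mainly with LPS.

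With anti-IgM, 5 of the 9 genes rose and 2 fell in WT B cells, where 32.4% of all genes tested rose and 32.2% fell (edgeR, adjusted p under 0.05). Cd83, Cd86, Cd69, Icam1 and Cd44 rose, Icosl and Slamf1 fell, and Cd80 and Cd274 did not pass the test. In Ubqln1-/- B cells the same 5 genes rose, against 32.9% of all genes, and Icosl, Slamf1 and Cd80 fell, against 32.4%. With LPS, 7 of the 9 rose and none fell in either genotype, against 31.2% of all genes higher and 30.1% lower in WT and 30.6% and 30.2% in Ubqln1-/- B cells. The 7 were Cd83, Icam1, Cd69, Cd44, Cd80, Cd274 and Slamf1. Cd86 and Icosl did not pass the test in edgeR, limma or DESeq2 without the replicate block. With the block, Cd86 also rose with LPS in WT (edgeR adjusted p = 1.84e-06) and Ubqln1-/- B cells (edgeR adjusted p = 8.14e-05). The block also called the rise of Cd274 with anti-IgM in WT (edgeR adjusted p = 0.0426). The median log2 fold change of the 9 genes was 0.49 in WT and 0.45 in Ubqln1-/- B cells with anti-IgM and 1.91 and 1.87 with LPS, against medians over all genes of -0.0096, -0.017, -0.010 and -0.020. Both stimulations were set against the same resting libraries.

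**Figure D2:**
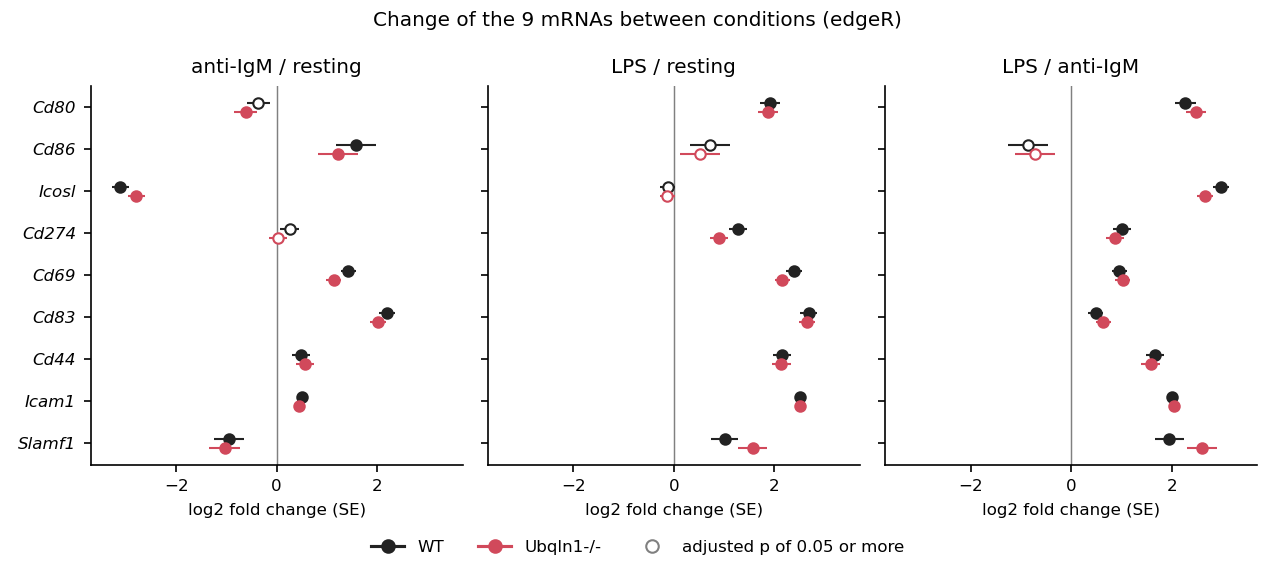
edgeR log2 fold changes (x axes, bars 1 SE) of the 9 genes with anti-IgM against resting, LPS against resting and LPS against anti-IgM in WT (black) and Ubqln1-/- (red) B cells. Filled points passed an adjusted p of 0.05 without the replicate block, and Icosl stood apart with -3.11 in WT with anti-IgM and -0.12 with LPS.

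Compared directly with each other, the stimuli separated 8 of the 9 genes, all higher with LPS, in both genotypes. Of all genes tested, 17.4% were higher and 15.0% lower with LPS than with anti-IgM in WT, and 16.8% and 14.5% in Ubqln1-/- B cells. The median log2 difference of the 9 genes was 1.67 in WT and 1.58 in Ubqln1-/- B cells, while that of all genes was 0.0022 and 0.0056. Only Cd86 pointed the other way, lower with LPS than with anti-IgM. With the replicate block its difference passed the test in WT (edgeR adjusted p = 3.13e-07) and in Ubqln1-/- B cells (edgeR adjusted p = 3.29e-06).

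Icosl, the ligand of the T cell costimulator ICOS, was abundant in resting B cells and was the member that anti-IgM lowered most. Its level in WT B cells was 112.1, 115.7 and 138 RPKM at rest, 14.4, 10.8 and 17.3 RPKM with anti-IgM, and 117, 96.0 and 123 RPKM with LPS. Every anti-IgM library was below every resting and LPS library, and the resting and LPS ranges overlapped. The Ubqln1-/- libraries held 129.9, 123.6 and 142 RPKM at rest, 19.9, 16.0 and 21.4 RPKM with anti-IgM and 133, 103 and 125 RPKM with LPS, which is the same order. Anti-IgM thus left 11.6% of the resting level in WT (log2 fold change -3.11 ± 0.16 SE, edgeR adjusted p = 2.84e-10) and 14.5% in Ubqln1-/- B cells (-2.79 ± 0.16, edgeR adjusted p = 8.27e-10). With LPS the log2 fold change was -0.12 ± 0.15 in WT (edgeR adjusted p = 0.496) and -0.13 ± 0.15 in Ubqln1-/- B cells (edgeR adjusted p = 0.461). Between stimuli, Icosl was 7.93-fold higher with LPS than with anti-IgM in WT and 6.31-fold higher in Ubqln1-/- B cells. Of 10 B cell marker genes, 9 also fell with anti-IgM in both genotypes and 6 with LPS, and their summed level in WT was 5340 to 6228 RPKM at rest, 1962 to 2541 with anti-IgM and 3790 to 4612 with LPS. Their part in the Icosl change was not tested.

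Cd80, the B7 protein that binds CTLA-4 most strongly, was the least abundant member per length in all 6 groups and responded to LPS. WT B cells had 1.09, 1.15 and 1.08 RPKM at rest, 0.868, 0.802 and 0.923 RPKM with anti-IgM and 2.94, 5.13 and 4.46 RPKM with LPS. Every LPS library was above every other WT library, and every anti-IgM library was below every resting library. In Ubqln1-/- B cells the levels were 1.53, 1.18 and 0.893 RPKM at rest, 0.803, 0.810 and 0.724 RPKM with anti-IgM and 4.16, 4.64 and 4.42 RPKM with LPS, again without overlap between conditions. Cd80 rose 3.77-fold with LPS in WT (log2 fold change 1.91 ± 0.20 SE, edgeR adjusted p = 4.71e-07) and 3.66-fold in Ubqln1-/- B cells (1.87 ± 0.20, edgeR adjusted p = 5.78e-07). The anti-IgM change rested on 27 to 55 reads a library and was -0.36 ± 0.23 on the log2 scale in WT (edgeR adjusted p = 0.173) and -0.62 ± 0.22 in Ubqln1-/- B cells (edgeR adjusted p = 0.0217, range over 7 alternatives 0.0187 to 0.0954, limma the one above the threshold). Without Ubqln1-/- resting library 1 the latter was -0.40 (edgeR adjusted p = 0.157), and without Ubqln1-/- anti-IgM library 3 it was -0.56 (edgeR adjusted p = 0.0657). The difference between the genotypes in this response was -0.26 ± 0.32 and did not pass the test (edgeR adjusted p = 1.00).

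Promoter windows are shown for Cd80 and Icosl, the 2 of 6 member windows that matched the NF-kB motif given below. Both genes were among the 8 of 9 that were higher with LPS than with anti-IgM in both genotypes. Cd80 rose with LPS, whereas Icosl fell with anti-IgM and its change with LPS did not pass the test. Each runs from 250 bases before to 50 bases after an annotated RefSeq start (GRCm38.p6), read 5′ to 3′ on the + strand, at chr16:38458683-38458982 for Cd80 and chr10:78069118-78069417 for Icosl. The Cd80 window belongs to a start inside the span RefSeq gives for the gene. Capitals mark matches to an NF-kB motif (GGGA, any 4 bases, then CC) in both windows and, nearer the start of Cd80, to an AP-1 motif (TGANTCA).
Cd80: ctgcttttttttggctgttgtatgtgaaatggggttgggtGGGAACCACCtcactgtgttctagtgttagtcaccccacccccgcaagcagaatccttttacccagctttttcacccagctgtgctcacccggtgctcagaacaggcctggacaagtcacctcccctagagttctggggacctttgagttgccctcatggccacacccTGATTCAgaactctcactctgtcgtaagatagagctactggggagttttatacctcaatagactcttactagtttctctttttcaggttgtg
Icosl: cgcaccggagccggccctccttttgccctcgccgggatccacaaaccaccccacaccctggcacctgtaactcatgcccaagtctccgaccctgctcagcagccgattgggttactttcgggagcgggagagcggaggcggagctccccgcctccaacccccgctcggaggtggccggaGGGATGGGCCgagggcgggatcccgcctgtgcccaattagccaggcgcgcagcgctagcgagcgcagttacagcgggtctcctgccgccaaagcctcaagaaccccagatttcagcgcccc
On either strand, 20.7% of the 32851 windows in the RefSeq table held the NF-kB motif and 7.81% the AP-1 motif. The Cd80 matches lay at -210 to -201 and -42 to -36 from the start and the Icosl match at -71 to -62. RefSeq windows were found for 6 of the 9 genes, which left Cd86, Cd69 and Cd83 without one.

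Cd86, the other B7 ligand of CD28, was highest with anti-IgM, whereas Cd80 was highest with LPS. The WT libraries numbered 1, 2 and 3 held 20.2, 39.2 and 53.2 RPKM at rest, 68.3, 109.4 and 160.6 RPKM with anti-IgM and 35.5, 63.5 and 87.1 RPKM with LPS. In each condition the WT library numbered 1 was the lowest and that numbered 3 the highest, by a factor over 2, so that the LPS range overlapped the resting and the anti-IgM ranges while the latter pair stayed apart. The Ubqln1-/- libraries had the same lowest and highest numbers, with 22.2, 41.7 and 46.8 RPKM at rest, 63.3, 87.5 and 107.7 RPKM with anti-IgM and 34.7, 56.4 and 66.8 RPKM with LPS. Cd86 rose 2.99-fold with anti-IgM in WT (log2 fold change 1.58 ± 0.40 SE, edgeR adjusted p = 0.00251) and 2.33-fold in Ubqln1-/- B cells (1.22 ± 0.40, edgeR adjusted p = 0.0133). Leaving out Ubqln1-/- resting library 1 gave 0.97 (edgeR adjusted p = 0.0658) and leaving out Ubqln1-/- anti-IgM library 3 gave 1.05 (edgeR adjusted p = 0.0515).

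The LPS response of Cd86 depended on whether the replicate number entered the fit. Without it, the log2 fold change with LPS was 0.72 ± 0.40 in WT (edgeR adjusted p = 0.129) and 0.51 ± 0.40 in Ubqln1-/- B cells (edgeR adjusted p = 0.279). With the number as a block it was 0.73 ± 0.092 in WT (edgeR adjusted p = 1.84e-06, range over 7 alternatives 1.84e-06 to 0.147) and 0.53 ± 0.093 in Ubqln1-/- B cells (edgeR adjusted p = 8.14e-05, range 8.14e-05 to 0.319). Within a number, LPS libraries exceeded resting libraries by 0.81, 0.70 and 0.71 on the log2 scale in WT and by 0.65, 0.44 and 0.51 in Ubqln1-/- B cells, all 6 in one direction. The block had the same effect on LPS against anti-IgM, where Cd86 differed by -0.86 ± 0.39 in WT (edgeR adjusted p = 0.109, with the block 3.13e-07, range 3.13e-07 to 0.147) and by -0.71 ± 0.40 in Ubqln1-/- B cells (edgeR adjusted p = 0.198, with the block 3.29e-06, range 3.29e-06 to 0.218). Without the block, leaving out WT LPS library 1 gave 1.00 for LPS against resting (edgeR adjusted p = 0.0433) and leaving out WT anti-IgM library 1 gave -1.12 for LPS against anti-IgM (edgeR adjusted p = 0.0473). Fitting only the anti-IgM and LPS groups of Ubqln1-/- B cells also called their difference (edgeR adjusted p = 0.0447).

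**Figure D3:**
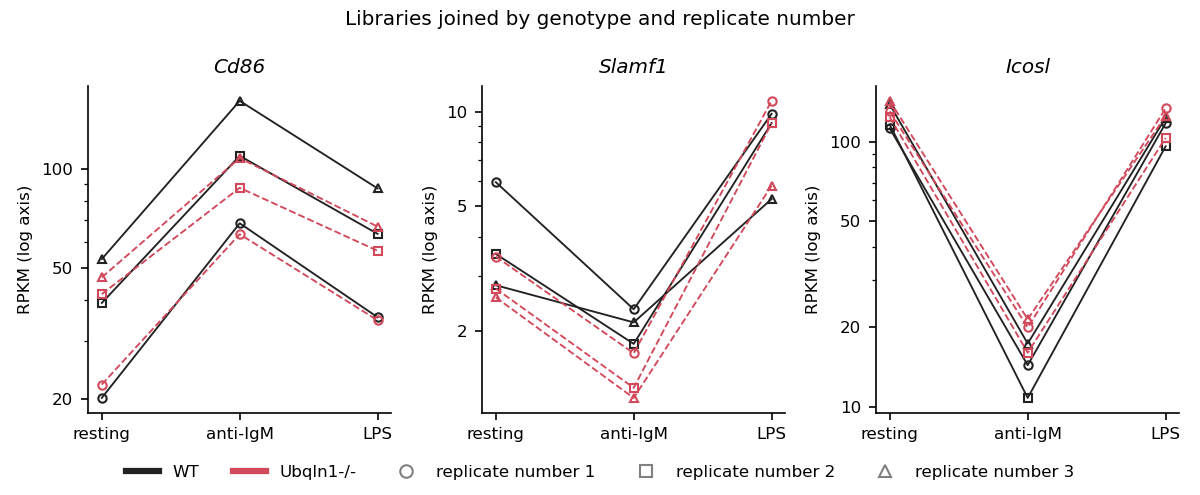
TMM-scaled RPKM (log axes) of Cd86, Slamf1 and Icosl in the 3 conditions, with libraries of one genotype and replicate number joined by a line (WT solid black, Ubqln1-/- dashed red). The Cd86 lines run nearly parallel from 20.2 to 53.2 RPKM in resting WT libraries, while Slamf1 had its highest value in number 1 of every group.

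Replicate number accounted for 37.2% of the variance of Cd86 over the 18 libraries and stimulation for 59.0%, by sums of squares of log2 CPM, counts scaled to library size. Libraries numbered 1 lay 0.63 below their group's mean on the log2 scale and those numbered 3 lay 0.49 above it. Number 1 was also the lowest of its group in 6 of 6 groups for the summed level of the 12 monocyte, macrophage and granulocyte markers, which was 27.6 to 69.3 RPKM over all libraries. Of these markers, Mpeg1 was at 10.2 to 53.0 RPKM, Cd68 at 6.41 to 14.8, Adgre1 at 1.44 to 12.2 and Lyz2 at 0.978 to 6.46, all counted in every library. Csf1r and Itgam had 7 to 68 and 20 to 127 reads, and the other 6 (Cd14, Fcgr1, S100a8, S100a9, Ly6g and Csf3r) had 0 reads in at least 1 library and at most 20 in any. The summed B cell and T cell markers were highest in number 1 of all 6 groups, at 1962 to 6228 RPKM and 7.49 to 19.9 RPKM. Those of NK cells were highest in number 1 of 5 groups. Summed dendritic cell markers were lowest in number 1 of 4 groups and highest in number 1 of 2. Plasma cell markers, like erythroid and platelet markers, were lowest in number 1 of 1 group and highest in number 1 of 2. The part of other cells in the Cd86 levels was not tested.

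The balance of the B7 mRNAs moved with the stimulus. Cd86 exceeded Cd80 by a ratio of 34.0 ± 15.3 (SD, n = 3) in resting WT B cells, 129.7 ± 48.0 with anti-IgM and 14.7 ± 4.23 with LPS. The ranges of the ratio did not overlap between anti-IgM (78.8 to 174) and either other condition (12.1 to 49.1). In Ubqln1-/- B cells the ratio was 34.1 ± 19.0 at rest, 111.9 ± 35.1 with anti-IgM and 11.9 ± 3.39 with LPS. The resting and LPS ranges overlapped in both genotypes. In WT the resting value of library 1, 18.5, fell inside the LPS range of 12.1 to 19.5. In Ubqln1-/- B cells the resting value of library 1, 14.5, fell inside the LPS range of 8.35 to 15.1.

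Cd274, which encodes PD-L1, rose with LPS, while its change with anti-IgM did not pass the test. Its WT levels were 8.89, 9.21 and 11.1 RPKM at rest, 9.02, 12.2 and 13.8 RPKM with anti-IgM and 16.3, 26.3 and 27.9 RPKM with LPS. The Ubqln1-/- levels were 10.1, 11.1 and 11.0 RPKM at rest, 10.2, 10.9 and 11.7 RPKM with anti-IgM and 16.7, 20.3 and 22.9 RPKM with LPS, so that the LPS libraries stood above all others and the resting and anti-IgM ranges overlapped in both genotypes. The rise with LPS was 2.41-fold in WT (log2 fold change 1.27 ± 0.18 SE, edgeR adjusted p = 1.32e-05) and 1.86-fold in Ubqln1-/- B cells (0.90 ± 0.18, edgeR adjusted p = 0.000385). With anti-IgM the log2 fold change was 0.26 ± 0.18 in WT (edgeR adjusted p = 0.229, with the replicate block 0.0426, range 0.0426 to 0.321) and 0.025 ± 0.18 in Ubqln1-/- B cells (edgeR adjusted p = 0.913). The genotypes differed in these responses by -0.37 ± 0.25 with LPS and -0.23 ± 0.26 with anti-IgM, neither past the test (edgeR adjusted p = 1.00). An antisense RNA, AC119228.1, shares 511 exonic bases with Cd274 in the GENCODE annotation, and without a stated strand its reads cannot be told from those of Cd274.

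Cd83, a surface protein that holds MHC class II and CD86 on the cell, had the highest mean per length in 5 of the 6 groups. The exception was resting Ubqln1-/- B cells, where Icosl led. At rest the Cd83 and Icosl ranges overlapped in both genotypes. WT B cells had 91.8, 145 and 148.8 RPKM of Cd83 at rest, 554.8, 574.5 and 639.5 RPKM with anti-IgM and 755.5, 878.4 and 845.6 RPKM with LPS. The 3 conditions did not overlap, in the order resting, anti-IgM, LPS. The Ubqln1-/- libraries kept this order, with 90.4, 128.9 and 132 RPKM at rest, 468.2, 447.2 and 502 RPKM with anti-IgM and 682.1, 740.5 and 788.4 RPKM with LPS. Cd83 rose 4.58-fold with anti-IgM in WT (log2 fold change 2.20 ± 0.16 SE, edgeR adjusted p = 6.77e-09) and 6.43-fold with LPS (2.68 ± 0.16, edgeR adjusted p = 3.20e-09). The folds in Ubqln1-/- B cells were 4.03 and 6.29. The step from anti-IgM to LPS was 0.49 ± 0.15 on the log2 scale in WT (edgeR adjusted p = 0.0220) and lost its call in 4 of 6 leave-one-out fits, without either WT LPS library 2 or 3 or either WT anti-IgM library 1 or 2 (adjusted p 0.0554 to 0.0702). In Ubqln1-/- B cells it was 0.64 ± 0.15 (edgeR adjusted p = 0.00406).

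Cd69, which retains lymphocytes in tissue by pulling the sphingosine 1-phosphate receptor S1PR1 off the surface, followed the same order at lower levels. It was at 27.6, 36.3 and 43.9 RPKM in resting WT libraries, 107.8, 89.1 and 93.5 RPKM with anti-IgM and 178.9, 178.3 and 207.4 RPKM with LPS. In Ubqln1-/- libraries it was at 29.7, 37.0 and 43.4 RPKM at rest, 91.8, 71.3 and 78.5 RPKM with anti-IgM and 159.5, 157.7 and 174.9 RPKM with LPS, and in neither genotype did any conditions overlap. The WT rise was 2.69-fold with anti-IgM (log2 fold change 1.43 ± 0.15 SE, edgeR adjusted p = 3.92e-07) and 5.22-fold with LPS (2.39 ± 0.16, edgeR adjusted p = 4.58e-09). For Ubqln1-/- B cells the rises were 2.20-fold and 4.47-fold. S1pr1 mRNA fell in the same libraries, from 145.8 ± 15.6 RPKM (SD, n = 3) in resting WT B cells to 67.0 ± 8.80 with anti-IgM (log2 fold change -1.12 ± 0.22, edgeR adjusted p = 0.000250) and 27.7 ± 8.56 with LPS (-2.40 ± 0.23, edgeR adjusted p = 1.86e-07).

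Icam1 and Cd44, the adhesion receptors for LFA-1 and hyaluronan, were raised strongly by LPS and little by anti-IgM. For Icam1 the WT levels were 29.4, 30.9 and 27.8 RPKM at rest, 46.0, 37.6 and 41.5 RPKM with anti-IgM and 176.5, 178.3 and 146 RPKM with LPS. Those in Ubqln1-/- B cells were 30.2, 29.8 and 28.6 RPKM, 44.6, 35.5 and 41.1 RPKM, and 178.1, 173.4 and 151.1 RPKM, and the conditions were apart in both genotypes. Stimulation took up 99.1% of the variance of Icam1, the highest share among the 9 genes. Its rise with LPS was 5.68-fold in WT (log2 fold change 2.51 ± 0.10 SE, edgeR adjusted p = 4.92e-11) and 5.67-fold in Ubqln1-/- B cells (2.50 ± 0.10, edgeR adjusted p = 5.16e-11). With anti-IgM it rose 1.42-fold in WT (0.51 ± 0.099, edgeR adjusted p = 0.000252) and 1.37-fold in Ubqln1-/- B cells (0.45 ± 0.098, edgeR adjusted p = 0.000673). Icam1 also shares 511 exonic bases with an antisense RNA, Gm47079.

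Cd44 was at 19.7, 22.9 and 18.7 RPKM in resting WT libraries, 21.4, 34.2 and 30.3 RPKM with anti-IgM and 87.2, 109.1 and 75.8 RPKM with LPS. Its Ubqln1-/- levels were 21.0, 25.2 and 20.1 RPKM at rest, 24.3, 34.5 and 38.6 RPKM with anti-IgM and 92.8, 106.4 and 92.0 RPKM with LPS. The LPS libraries stood above all others, whereas the resting and anti-IgM ranges overlapped in both genotypes. LPS raised Cd44 4.44-fold in WT (log2 fold change 2.15 ± 0.19 SE, edgeR adjusted p = 7.30e-08) and 4.40-fold in Ubqln1-/- B cells (2.14 ± 0.19, edgeR adjusted p = 7.72e-08). The anti-IgM change was 0.49 ± 0.18 in WT (edgeR adjusted p = 0.0262) and 0.56 ± 0.18 in Ubqln1-/- B cells (edgeR adjusted p = 0.0122). It lost its call in WT without resting library 1 or 3 or anti-IgM library 2 or 3 (0.35 to 0.45, adjusted p 0.0648 to 0.135) and in Ubqln1-/- B cells without resting library 3 or anti-IgM library 3 (0.49 and 0.43, adjusted p 0.0505 and 0.0570).

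The promoter windows of this LPS-responsive pair differed in which of the 6 motifs searched they matched. Both run from 250 bases before to 50 after the RefSeq start (GRCm38.p6) and are printed 5′ to 3′, Icam1 from the + strand of chr9:21015690-21015989 and Cd44 from the - strand of chr2:102901616-102901915. Capitals mark a match to the STAT motif GAS (TTCNNNGAA) in Icam1, at -42 to -34, and to the NFAT motif GGAAAA in Cd44, at -205 to -200.
Icam1: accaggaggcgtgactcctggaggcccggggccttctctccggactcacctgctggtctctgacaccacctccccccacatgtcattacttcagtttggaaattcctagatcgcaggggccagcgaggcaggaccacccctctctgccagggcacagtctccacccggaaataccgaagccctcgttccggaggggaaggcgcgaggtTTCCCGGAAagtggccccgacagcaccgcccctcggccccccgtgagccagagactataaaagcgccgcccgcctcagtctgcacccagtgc
Cd44: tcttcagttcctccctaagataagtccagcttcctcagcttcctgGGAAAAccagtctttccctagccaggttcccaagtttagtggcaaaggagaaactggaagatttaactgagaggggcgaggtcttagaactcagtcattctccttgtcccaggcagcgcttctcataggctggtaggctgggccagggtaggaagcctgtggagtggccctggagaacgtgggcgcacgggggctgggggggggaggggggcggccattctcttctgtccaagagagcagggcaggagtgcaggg
GAS was in 8.30% and the NFAT motif in 23.4% of all windows. The windows of Slamf1 and Cd274 matched none of the 6 motifs searched, and no member window matched the EGR motif (GCGNGGGCG, 5.55% of windows) or the interferon response element (GAAA, any 2 bases, GAAA, 3.44% of windows). A match to the letters is not evidence that a factor binds there. The search took only the exact letters given, so a window without a match may still hold sites spelled otherwise.

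Slamf1, the self-binding receptor SLAM, was lowered by anti-IgM and raised by LPS. Its levels were 5.97, 3.52 and 2.80 RPKM in resting WT libraries, 2.35, 1.82 and 2.13 RPKM with anti-IgM and 9.87, 9.22 and 5.27 RPKM with LPS. One resting WT library, number 1, lay inside the LPS range. Resting Ubqln1-/- libraries held 3.45, 2.73 and 2.56 RPKM, those with anti-IgM 1.70, 1.32 and 1.22 RPKM and those with LPS 10.9, 9.21 and 5.82 RPKM, without overlap between conditions. With anti-IgM Slamf1 fell by 0.95 ± 0.30 SE on the log2 scale in WT (edgeR adjusted p = 0.00984) and by 1.04 ± 0.31 in Ubqln1-/- B cells (edgeR adjusted p = 0.00704). Without WT resting library 1 the former was -0.60 (edgeR adjusted p = 0.0794). With LPS it rose 2.01-fold in WT (1.01 ± 0.27, edgeR adjusted p = 0.00427) and 2.96-fold in Ubqln1-/- B cells (1.57 ± 0.28, edgeR adjusted p = 0.000146). The LPS responses of the genotypes differed by 0.56 ± 0.39, which did not pass the test (edgeR adjusted p = 1.00), and number 1 was the highest library of Slamf1 in 6 of 6 groups.

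**Figure D4:**
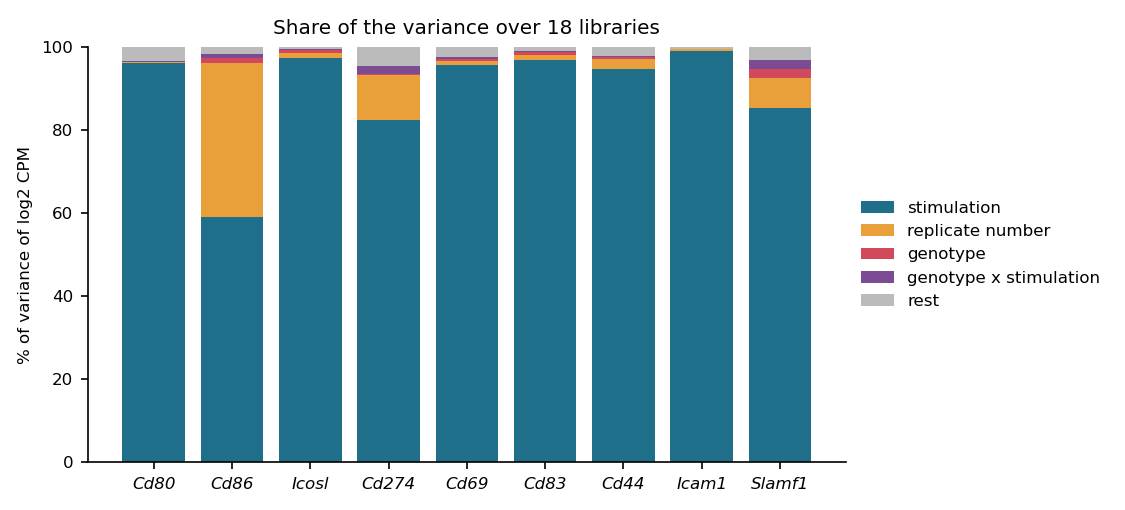
Share of the variance of log2 CPM over the 18 libraries (y axis, %) that went with stimulation, replicate number, genotype, their interaction and the rest, for each of the 9 genes. Stimulation took up from 59.0% (Cd86) to 99.1% (Icam1), and genotype at most 2.31% (Slamf1).

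After Cd86, replicate number took up most in Cd274, at 10.9%, and in Slamf1, at 7.30%. Stimulation accounted for 96.1% in Cd80, 97.4% in Icosl, 82.3% in Cd274, 95.8% in Cd69, 96.8% in Cd83, 94.6% in Cd44 and 85.2% in Slamf1. Genotype accounted for 0.0021% to 2.31% and its interaction with stimulation for 0.014% to 2.07%.

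With the replicate block, Icosl with anti-IgM was the only one of the 9 genes called between genotypes. The blocked fit called 49 of the 14161 genes tested at rest, 94 with anti-IgM and 125 with LPS. Without the block, none of the 9 genes differed past the test in any condition. Of all genes tested, edgeR without the block called 0.0565% at rest, 0.0989% with anti-IgM and 0.0424% with LPS. It called 0% for the interaction of genotype with either stimulus. Among the 9, limma and DESeq2 also called 0, and only Icosl with anti-IgM had an unadjusted p under 0.05 in edgeR (adjusted p = 0.730). Of the 14161 genes tested, the interactions had an unadjusted p under 0.05 for 140 with anti-IgM and 220 with LPS in edgeR. Both counts are below what that threshold gives where no gene differs, and 0 calls do not show equal responses. With the replicate block the counts were 377 and 430, with 0 called, and limma and DESeq2 called 0 as well.

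With anti-IgM, the estimates that exceeded their standard error were those of Icosl, Cd83, Cd69, Slamf1 and Cd44, none of them past the test. Icosl differed by 0.44 ± 0.16 SE on the log2 scale with overlapping ranges (14.2 ± 3.26 RPKM in WT and 19.1 ± 2.79 in Ubqln1-/-, SD, n = 3), and was higher in 3 of 3 pairs of equal number. With the replicate block the difference was 0.44 ± 0.087 (edgeR adjusted p = 0.0232, range over 7 alternatives 0.0232 to 0.857), the one call that any alternative made between genotypes. The corresponding difference in response, 0.32 ± 0.22, was not called by any of them. Cd83 was at 589.6 ± 44.3 RPKM in WT and 472.4 ± 27.6 in Ubqln1-/- B cells, without overlap (-0.32 ± 0.15, edgeR adjusted p = 0.987), and lower in Ubqln1-/- in 3 of 3 pairs. Slamf1 did not overlap either (-0.56 ± 0.31, edgeR adjusted p = 0.997), while Cd69 did (-0.27 ± 0.15, edgeR adjusted p = 0.997) and Cd44 differed by 0.18 ± 0.18.

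With LPS, Cd69 was at 188.2 ± 16.6 RPKM in WT and 164 ± 9.42 in Ubqln1-/- B cells, without overlap (-0.20 ± 0.15, edgeR adjusted p = 1.00). Cd83 differed by -0.17 ± 0.15 and Cd274 by -0.23 ± 0.17 there, and at rest Slamf1 differed by -0.47 ± 0.29. The response of Cd69 differed between genotypes by -0.29 ± 0.21 with anti-IgM and -0.22 ± 0.21 with LPS. Of the 45 genotype differences and interactions computed for the 9 genes, the other 31 were no larger than their standard error in the fit without the block, where standard errors ran from 0.096 (Icam1 with LPS) to 0.56 (Cd86 with LPS, interaction). All 5 of the Cd86 estimates were among these 31, and the block lowered their standard errors. With the block, Cd86 differed between genotypes by -0.33 ± 0.089 with anti-IgM (edgeR adjusted p = 0.105, range over 7 alternatives 0.105 to 1.00) and by -0.20 ± 0.091 with LPS (edgeR adjusted p = 0.563, range 0.563 to 1.00). It was lower in Ubqln1-/- in 3 of 3 pairs of equal number with either stimulus, without passing the test, and its interaction with LPS had a standard error of 0.13.

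**Figure D5:**
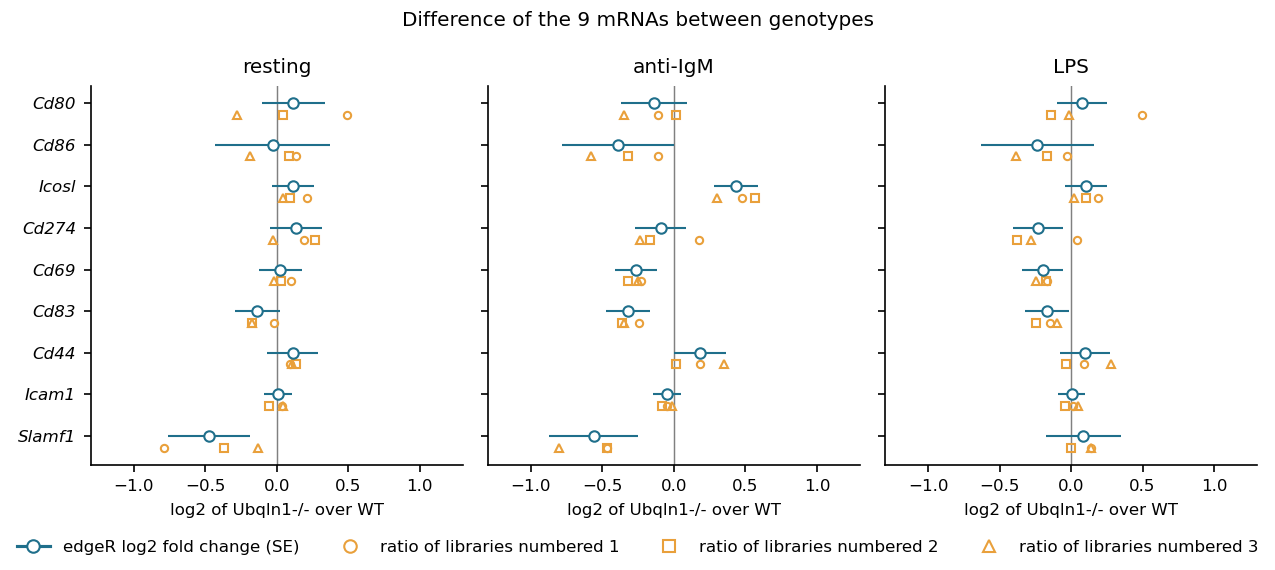
Log2 difference of Ubqln1-/- from WT (x axes) for the 9 genes at rest, with anti-IgM and with LPS, as the edgeR estimate with 1 SE (open circles) and as the ratio of the libraries of equal number (orange). No estimate passed the test without the replicate block, and Icosl with anti-IgM, at 0.44, had all 3 ratios above 0.

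Other genes of the same pathways were read from lists of names. Their counts stand against 30.1% to 32.9% of all genes tested that passed in each direction against resting, and nothing particular to a list is read from them. Of 10 other B7 and CD28 family genes, 7 were tested, of which 4 rose and 2 fell with anti-IgM in WT and 2 rose and 1 fell with LPS. In Ubqln1-/- B cells 5 rose and 1 fell with anti-IgM and 1 rose and 1 fell with LPS. Pdcd1, the PD-1 receptor itself, went from 0.378 ± 0.18 RPKM (SD, n = 3) at rest to 4.26 ± 2.54 with anti-IgM in WT (log2 fold change 3.51 ± 0.54 SE, edgeR adjusted p = 2.27e-05) and was at 0.270 ± 0.14 with LPS. Vsir, an inhibitory B7 relative, went from 4.38 ± 0.092 to 26.4 ± 5.46 RPKM with anti-IgM (2.59 ± 0.16, edgeR adjusted p = 1.05e-09). Pdcd1lg2, the other PD-1 ligand, rose with both stimuli, to 7.62 ± 0.095 and 6.28 ± 0.79 RPKM from 3.97 ± 0.68, and Ctla4 rose with anti-IgM from 0.697 ± 0.16 to 1.21 ± 0.35 RPKM.

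Of 8 tested SLAM family genes and adaptors other than Slamf1, 3 rose and 2 fell with anti-IgM in both genotypes, 3 rose and 3 fell with LPS in WT and 2 rose and 1 fell with LPS in Ubqln1-/- B cells. Slamf6 and Cd48 fell with anti-IgM as Slamf1 did, from 34.6 ± 3.58 to 9.00 ± 2.50 RPKM and from 75.4 ± 8.10 to 34.6 ± 5.97 RPKM in WT, whereas Slamf7 rose from 36.1 ± 6.97 to 57.1 ± 10.6 RPKM. With LPS, Slamf7 was at 62.5 ± 14.4 RPKM, and Ly9 at 118 ± 20.6 against 76.5 ± 4.08 at rest.

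Of 16 tested integrins and other adhesion genes, 3 rose and 7 fell with anti-IgM in both genotypes, and with LPS 5 rose and 7 fell in WT and 5 and 8 in Ubqln1-/- B cells. The integrin chains Itgb7 and Itga4 were among those that fell. Itgb7 went from 30.4 ± 2.73 to 3.03 ± 1.20 RPKM with anti-IgM and 9.49 ± 4.00 with LPS in WT, and Itga4 from 41.1 ± 7.10 to 8.47 ± 0.64 and 28.8 ± 4.03. Spn (CD43) was at 12.3 ± 5.81 RPKM at rest, 6.88 ± 1.34 with anti-IgM and 4.15 ± 0.87 with LPS.

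Among the 10 genes tested that act on the member proteins, 4 rose and 5 fell with anti-IgM in WT and 4 and 4 in Ubqln1-/- B cells, and with LPS 3 rose and 5 fell in WT and 3 and 4 in Ubqln1-/- B cells. Marchf1, the ubiquitin ligase that removes CD86 and MHC class II from the surface and that CD83 opposes, fell in WT from 48.9 ± 3.59 to 9.45 ± 1.13 RPKM with anti-IgM (log2 fold change -2.37 ± 0.12 SE, edgeR adjusted p = 1.58e-10) and to 13.9 ± 2.15 with LPS (-1.81 ± 0.11, edgeR adjusted p = 3.56e-09). Adam10, a sheddase, rose with anti-IgM from 58.9 ± 3.35 to 121.4 ± 4.56 RPKM and fell with LPS to 45.3 ± 1.67. Hyal2, which degrades the CD44 ligand hyaluronan, rose from 6.95 ± 0.95 to 14.5 ± 1.21 and 12.0 ± 2.31 RPKM. The listed mRNAs do not measure the surface level of any protein.

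Among 24 other tested surface markers of B cell activation, 8 rose and 11 fell with anti-IgM in WT and 7 and 10 in Ubqln1-/- B cells, while 14 rose and 5 fell with LPS in both. The median log2 fold change was -0.32 with anti-IgM and 0.73 with LPS in WT. There LPS was above anti-IgM for 14 of the 24 and below it for 4, against 17.4% and 15.0% of all genes tested. Cd5 rose with anti-IgM, from 0.740 ± 0.29 to 7.35 ± 2.18 RPKM, and was at 0.536 ± 0.14 with LPS. Il2ra, the IL-2 receptor alpha chain, rose with both, from 8.75 ± 2.02 to 43.1 ± 9.09 and 75.9 ± 16.6 RPKM, and Fas rose with LPS, from 2.19 ± 0.43 to 10.4 ± 0.69 RPKM, with 2.41 ± 0.34 with anti-IgM. Cd55, which shields cells from complement, fell from 168.3 ± 15.9 to 34.8 ± 4.83 and 77.1 ± 8.35 RPKM. No gene of the 5 lists was called between genotypes by edgeR.

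Within the set, Cd69 and Cd83 (Pearson r = 0.96), Cd44 and Icam1 (0.96), Cd80 and Icam1 (0.91) and Cd274 and Cd44 (0.90) had the most similar log2 CPM over the 18 libraries, and Cd86 and Icosl the least similar (-0.69). These correlations share the 3 conditions of the libraries and are descriptions. Among 11423 genes, those with the profile most like a member were Itgal for Cd80 (r = 0.98), the alpha chain of the integrin that binds ICAM-1, Map2k3 for Cd86 (0.95), Il10ra for Icosl (0.99) and Id2 for Cd274 (0.96). For the other members they were Junb for Cd69 (0.99), Bcl2a1b for Cd83 (0.99), Inf2 for Cd44 (0.98), Nfkbiz for Icam1 (0.99) and Pak4 for Slamf1 (0.96). Bcl2a1b belongs to a family of near-identical copies, so its reads may be split among them. Next in rank were Tmem123 and Dennd5a for Cd80, Cebpb and App for Cd86, Pglyrp2 and Syk for Icosl, Tpp2 and Pde4dip for Cd274, Tfe3 and Stat6 for Cd69, Fnbp1 and Cebpz for Cd83, Trp53 and Eed for Cd44, BC035044 and Nfkbia for Icam1, and Tnfrsf13b and Fchsd2 for Slamf1.

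The order of the 9 mRNAs per length changed with the stimulus. In resting WT B cells Cd83 (128.5 RPKM) and Icosl (122.0) led with overlapping ranges, followed by Cd86 (37.5), Cd69 (35.9) and Icam1 (29.4), each overlapping the next, and then Cd44, Cd274, Slamf1 and Cd80, all apart. With anti-IgM, Cd83 (589.6) was followed at a distance by Cd86 (112.8) and Cd69 (96.8), which overlapped, and Icosl (14.2) dropped to the sixth place beside Cd274 (11.7). With LPS the order was Cd83 (826.5), Cd69 (188.2) and Icam1 (167.0), each apart from the next, then Icosl, Cd44 and Cd86, of which neighbours overlapped. The Ubqln1-/- groups had the same order except that Icosl led at rest and Icam1 (167.5) stood beside Cd69 (164.0) with LPS, with overlapping ranges in both cases.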

How the data were processed

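Per the labels and the study's methods, single-end 50 base reads were aligned to GRCm38 with GSNAP. The authors deposited a count per Entrez gene over its exons, not normalized, and an RPKM per gene. The counting program, its strand setting and the annotation release are not given in the sources used here. The deposited RPKM were used only as an alternative, since their library totals exceed the sum of the counts, which make up 83.8% to 88.4% of them. No column was left unused.

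Entrez numbers were named and placed with the RefSeq table of GRCm38.p6 (89.1% of 28096 matched) and checked against GENCODE M21. edgeR 4.0.16 (R 4.3.3) was run on the counts of the 18 libraries together, with TMM, filterByExpr and the quasi-likelihood F test, 1 term per group. Adjusted p-values are Benjamini-Hochberg over the 14161 genes tested, called under 0.05. A standard error is the size of the log2 fold change divided by the square root of F. The code was tested on simulated data. Log2 CPM used a prior count of 2. The tests were 6 comparisons between conditions, 3 between genotypes and 2 interactions. limma 3.58.1 (voom, the study's tool), DESeq2 1.42.0, RLE, other filters (a total of 1 count, at least 10 in every sample), a replicate block, fits of the compared groups alone, a minimum log2 fold change of 1, and omission of each library were alternatives. Figures and remaining steps used matplotlib 3.10.9, pandas 2.3.3, numpy 2.4.6 and Python 3.11.15.

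The labels number replicates 2 and 3, and the unnumbered library of each group was taken as 1. Deviations from group means correlated between libraries of equal number (mean r 0.27, over 0.1 in 43 of 45 pairs, 18 of 18 libraries best with their own number). The mean r between unlike numbers, -0.13, is negative because deviations within a group sum to 0, and is not separate evidence. Every pair of equal number was over 0.1 in the 6 comparisons between conditions and between genotypes with anti-IgM and with LPS, so these comparisons were taken as paired. The main fit leaves this pairing out, and the replicate block is the fit that includes it. The resting genotype pair 2 (0.083) and one pair of the anti-IgM interaction (0.055) were not. The study gives 3 independent experiments for this RNASeq, without linking them to the replicate numbers. Where libraries are not from separate animals, p-values measure only the spread between these samples.

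The members, lists and named genes were chosen with earlier results of these data known. Named from each list were at most 4 genes with the largest WT change under either stimulus, called in both genotypes in one direction, with a mean of at least 1 RPKM in the higher group, of which 1 is not reported here. Like genes were the 3 with the highest Pearson correlation among named genes with a mean of at least 1 CPM. No outlier test applies to groups of 3. No protein sequences were used here.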

Additional observations from a re-analysis of the deposited data

How the results depend on the processing

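Over the 9 genes, 378 alternative estimates of the 6 stimulation comparisons gave 371 of the same direction and side of the threshold, 6 newly called, 1 lost and 0 of opposite sign. Requiring a log2 fold change over 1 lowered the number of members called with anti-IgM from 7 to 4 in WT and from 8 to 5 in Ubqln1-/- B cells. Leaving out single libraries gave 5 to 8 called members in Ubqln1-/- B cells with anti-IgM, the fewest without anti-IgM library 3. The log2 fold change of Cd274 with anti-IgM in Ubqln1-/- B cells, near 0, changed sign in 2 of these fits and ran from -0.0085 to 0.081. With the replicate number as a block (the paired analysis), 1 member, Icosl, was called between genotypes with anti-IgM instead of 0. The block gained the Cd86 and Cd274 calls given in the text and changed no other call of a member. Over all genes the genotype calls moved from 8 to 49 at rest, 14 to 94 with anti-IgM and 6 to 125 with LPS under the block, and to 32, 47 and 51 in DESeq2 and 6, 18 and 5 in limma. At rest the genotype pairs numbered 1 and 3 correlated at 0.30 and 0.20 and pair 2 at 0.083, so that comparison was not taken as paired. Of 481 alternative estimates for the 31 genotype differences within their standard error without the block, 77 had the opposite sign and 0 were called. RLE moved group levels by a factor of 0.995 to 1.01, and deposited RPKM were 0.839 to 0.889 of the TMM-scaled ones. With 3 libraries a group and a biological coefficient of variation of 10.1%, differences near the standard errors given could not be resolved. Cd80, with 27 to 343 reads, was the least deeply counted member.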
